A study of Mus musculus with 12 samples.

Results

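The comparison described here was between quadriceps libraries labelled KO and quadriceps libraries labelled WT, across all genes of the deposited table. Its members were chosen by label, as 4 libraries from Gaa knockout mice that had received PBS and 4 libraries from untreated wild-type mice, which are 8 of the 12 libraries of the series. The other 4 libraries came from knockout mice given a liver-directed vector for human GAA. All mice carried the C57BL/6 background and were 6 months old at harvest. The knockout mice were male and served as the PBS control arm of the vector experiment, whereas the wild-type mice are described as age-matched and carry the treatment label none, so that genotype and PBS treatment cannot be told apart. The knockout allele and the sex of the wild-type mice are not given in the sources used here. The table lists 15344 genes, and the 14859 that reached a normalized count of 10 in 1 or more of these 8 libraries were tested.

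Gaa encodes acid alpha-glucosidase, the enzyme that breaks down glycogen inside lysosomes. In Pompe disease its loss lets glycogen accumulate in the lysosomes of muscle fibers, with enlarged lysosomes, a block of autophagy, fiber damage and muscle weakness. The quadriceps of the mouse is made mostly of fast glycolytic fibers, with few slow oxidative fibers.

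The targeted gene went against the labels. Gaa (ENSMUSG00000025579, GRCm38 chromosome 11, 119267887 to 119285454, + strand) was counted at normalized values of 343, 14640.2, 324 and 460.3 in libraries 1 to 4 labelled WT and of 12151, 13075, 11936 and 12895 in libraries 1 to 4 labelled KO. All libraries labelled KO and WT library 2 were therefore high, and the remaining libraries labelled WT were low, so the groups overlapped. The log2 fold change was 3.75 ± 1.03 (standard error; limma, Benjamini-Hochberg adjusted p = 0.025), and an exact two-sided permutation test over the 8 libraries gave p = 0.143, where 0.0286 was the smallest it could give. On recovered reads edgeR gave a log2 fold change of 1.66 (Benjamini-Hochberg adjusted p = 0.29), which does not pass. Leaving out 1 library at a time, 8 limma fits kept an adjusted p under 0.05 for Gaa in 2 (highest 0.073, without WT library 4). Every direction below rests on these labels, and libraries are named by them.

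Separately from Gaa, WT library 3 stood apart across the transcriptome. On log2 values its mean correlation with the KO-labelled libraries was 0.960 and with the other WT-labelled libraries 0.946, and the first principal component (62.9% of the variance) placed it at 4.03, with the other WT-labelled libraries between -91.8 and -59.0 and the KO-labelled ones between 54.7 and 60.3. For every gene called without it, its place was measured on a scale from the mean of the other WT-labelled libraries (0) to the mean of the KO-labelled libraries (1). Over 3244 such genes its median position was 0.69, and 2123 genes (65.4%) lay nearer to the KO-labelled libraries. For WT libraries 1, 2 and 4 the same share was 9.59%, 2.89% and 5.58%. WT library 2, the library with high Gaa, thus did not lie toward the KO-labelled libraries in other genes, and WT library 3, with low Gaa, did. Results are therefore given with and without each of these libraries.

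**Figure D1:**
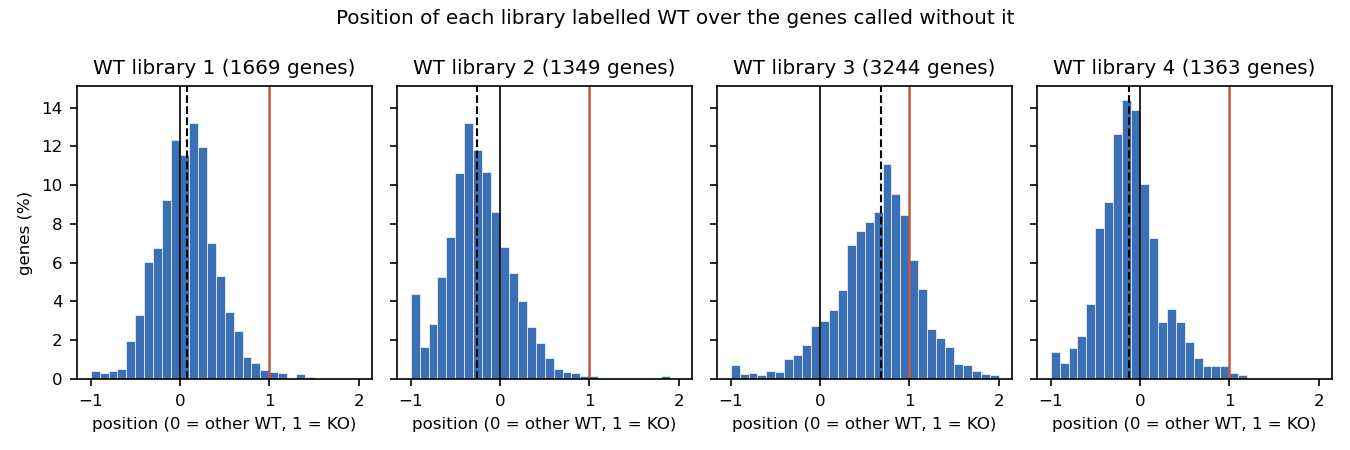
Histograms of the position of each library labelled WT, over the genes called when that library was left out (x axis, 0 the mean of the other WT-labelled libraries, 1 the mean of the KO-labelled libraries on the log2 scale; values beyond the axis are in the end bins; y axis, genes in %). The dashed line is the median, which lies at 0.69 for WT library 3 and between -0.25 and 0.08 for the others.

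Each library held between 31225360 and 47379737 counted reads, with the highest number in WT library 3 and at most 40846896 in the others. The tissue label fitted the markers, since 10 skeletal muscle genes summed to between 4838212 and 6166727 normalized counts in the WT-labelled libraries and between 6003969 and 6923413 in the KO-labelled ones. Markers of T and B cells and of neutrophils were near 0 in every library, with sums of at most 34.4. Macrophage markers (25 genes) summed to 9223, 9389, 2109 and 10809 in WT libraries 1 to 4 and to 1711, 1795, 2174 and 1218 in KO libraries 1 to 4. The sum of 16 endothelial and mural markers was 12347, 7971, 19362 and 8455 in the WT-labelled libraries and 23287, 24912, 22054 and 20482 in the KO-labelled ones. Lower macrophage and higher vessel marker levels thus went with the label KO and, in part, with WT library 3. In whole tissue, fewer cells of a type and less RNA per cell cannot be told apart. The part of these cell types in the results below was not tested. Fibroblast and tenocyte markers overlapped between the groups, with sums of 4534 to 5996 and 4379 to 7057, and adipocyte markers did as well, at 4432 to 10640.4 and 6214 to 27188. Schwann cell markers summed to 1920 to 3422 and 2332 to 3603, and erythroid markers to 1347 to 1907 and 193 to 2002. The Y-linked gene Eif2s3y was at 1272 ± 107 in the WT-labelled libraries and 1224 ± 213 in the KO-labelled ones (SD, n = 4 in each), so Y transcripts were present in both groups.

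**Figure D2:**
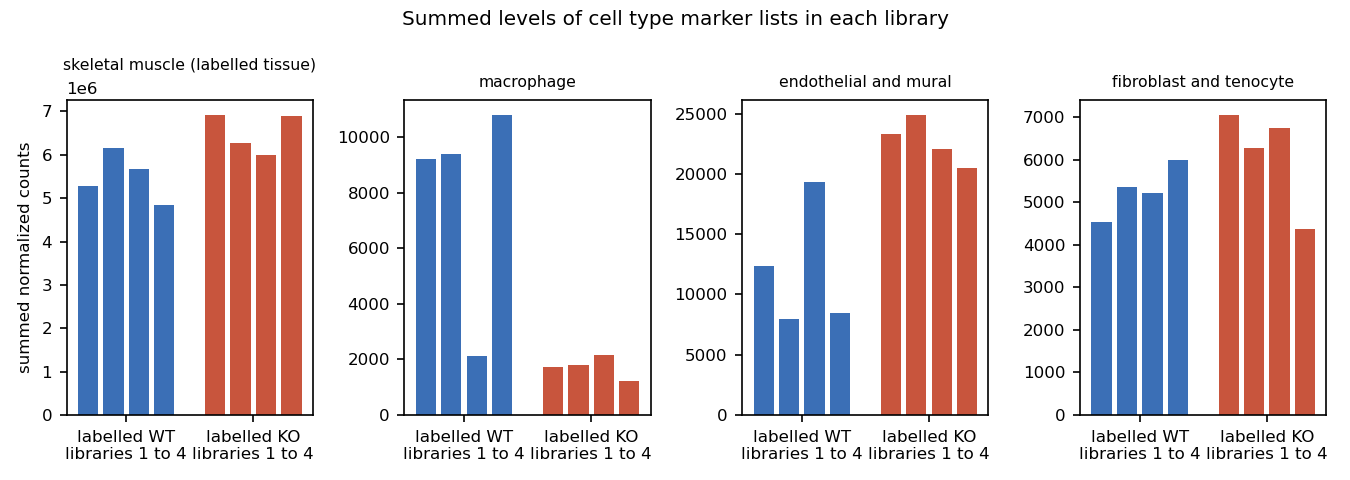
Summed normalized counts (y axes) of 4 marker lists in libraries 1 to 4 of each group (x axis; bars are single libraries). Macrophage markers lie between 9223 and 10809 in WT libraries 1, 2 and 4 and between 1218 and 2174 in WT library 3 and the KO-labelled libraries.

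Of the 14859 genes tested, 4097 passed an adjusted p of 0.05 (limma, Benjamini-Hochberg), 1826 higher (12.3%) and 2271 lower (15.3%) in the KO-labelled libraries. Below, "passed" has this meaning. Those that also differed by 1 or more on the log2 scale, 2070 genes, were called (13.9%), 807 higher and 1263 lower, and in 4210 genes (28.3%) the 4 values of one group did not overlap the 4 of the other. Without WT library 2, 7.55% of genes passed higher and 10.2% lower, and 1349 were called. Without WT library 3, 24.1% passed in each direction and 3244 were called, and without WT library 4, 1363 were called. Of the 2070 called genes, 2026 (97.9%) were also called without WT library 3 and 1315 (63.5%) without WT library 2, and all 2070 kept their sign in both. By leaving out each library in turn, between 2347 (WT library 4) and 7160 (WT library 3) genes passed. Passed higher and lower were 1193 and 1649 without WT library 1, and 993 and 1354 without WT library 4. Without KO libraries 1 to 4 in turn, 917, 944, 1042 and 1010 genes passed higher and 1438, 1489, 1596 and 1571 lower. List counts below are to be read beside these totals over all genes. Counts of list members are repeated below without WT libraries 2 and 3 and without each other library that moved a count of 3 or more by over 1.5 times. The lists were chosen with earlier results of these data known, so their shares are not independent of these libraries. The disease signature listed with the study (282 genes) was selected on these same libraries and is not independent evidence of direction; 1788 of the called genes lie outside it.

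**Figure D3:**
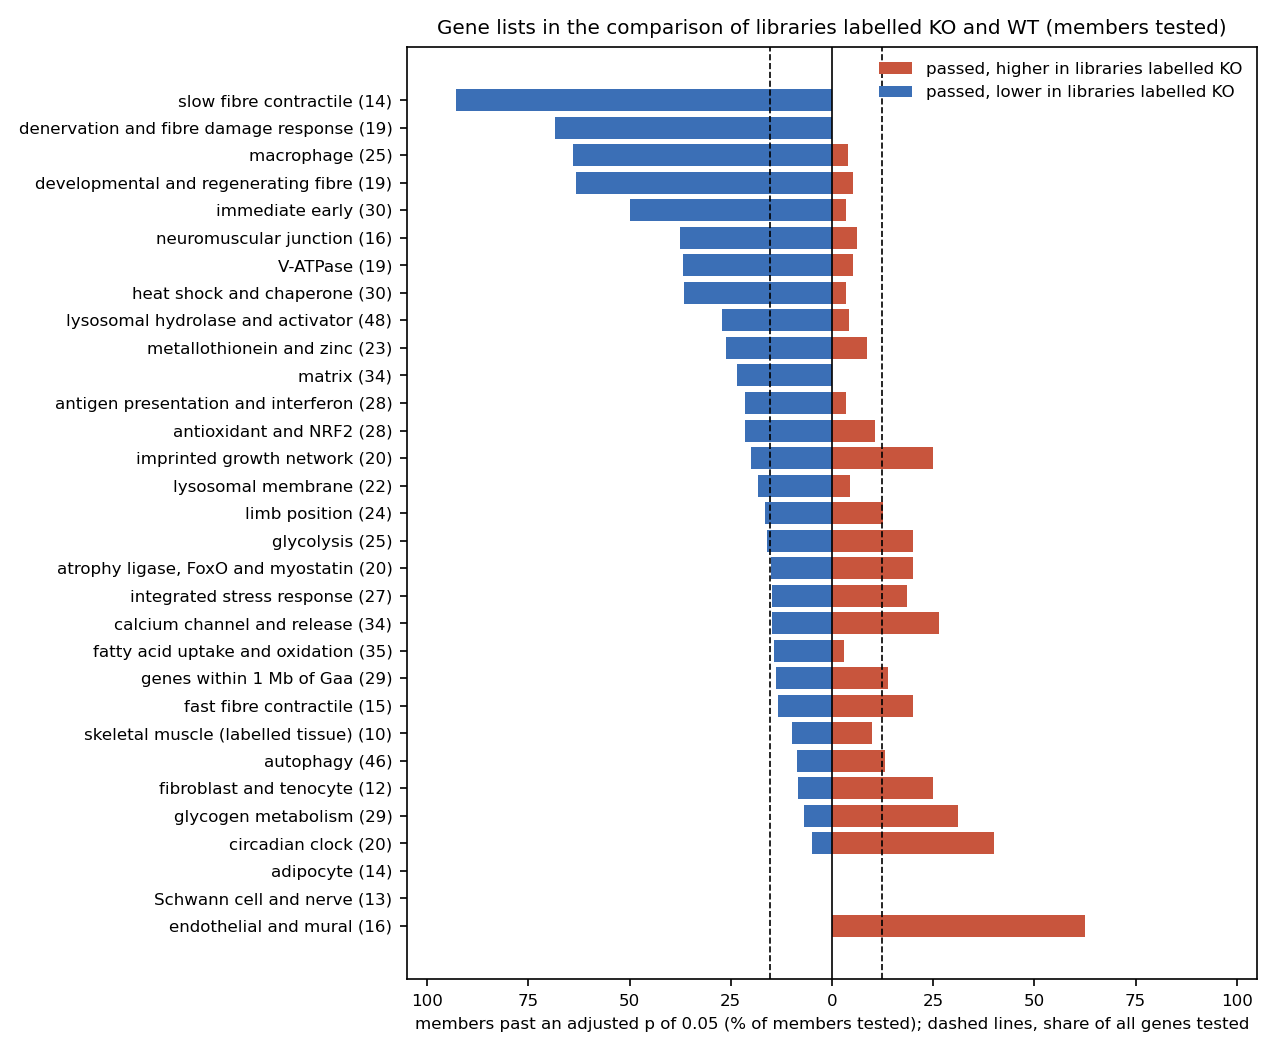
Share of the tested members of each list (x axis, %; number tested in parentheses on the y axis) that passed an adjusted p of 0.05 lower (left, blue) or higher (right, red) in the KO-labelled libraries. Dashed lines mark the shares over all genes tested, 15.3% and 12.3%; slow fiber genes reach furthest to the left and endothelial and mural markers furthest to the right. The lists were chosen with earlier results of these data known.

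The 4 metallothioneins, small cysteine-rich proteins that bind zinc and copper, were among the largest differences. Induction by metals, glucocorticoids and inflammation is a property of Mt1 and Mt2. Mt3 had normalized counts of 13566, 17019, 723 and 11385 in the WT-labelled libraries and 32.9, 27.4, 20.7 and 23.9 in the KO-labelled ones, a log2 fold change of -7.94 ± 0.84 (limma, adjusted p = 0.0005). Mt2 fell from 20257, 18863, 1725 and 11171 to 277, 121, 228 and 70.7 (-5.91 ± 0.74), and Mt1 from 18460.4, 17996, 1827 and 10377 to 420.3, 387, 603 and 296 (-4.43 ± 0.64). For Mt4, 219, 155, 8.93 and 101.4 stood against 0 in each library labelled KO, at least 42.6-fold lower against a floor of 3 reads a library. In all 4 genes the groups did not overlap, WT library 3 was lowest among those labelled WT, and the genes lie side by side on chromosome 8. Over the whole list of metallothionein and zinc genes, 6 of 23 tested members passed lower and 2 higher (5 without WT library 2 and 9 without WT library 3 lower), and the median log2 fold change was -0.05 (0.02 over all genes, and the same list median with Mt4 at its bound). The zinc importer gene Slc39a2 rose from 16.3, 18.1, 12.2 and 28.3 to 95.7, 87.2, 111 and 103 (2.40 ± 0.27) and the zinc exporter gene Slc30a2 from 477, 389, 569.8 and 194 to 948, 744, 891 and 1011 (1.24 ± 0.29). Mtf1, the zinc-sensing transcription factor of metallothionein genes, had 938 to 1209 and 1156 to 1329.8 (0.28 ± 0.12, limma, adjusted p = 0.107), and the exporter Slc30a1 229 to 311 and 292 to 410.1 (0.39 ± 0.16, adjusted p = 0.09). Mtf1 shares 721 identical bases with the neighboring 1110065P20Rik, so its value is uncertain.

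**Figure D4:**
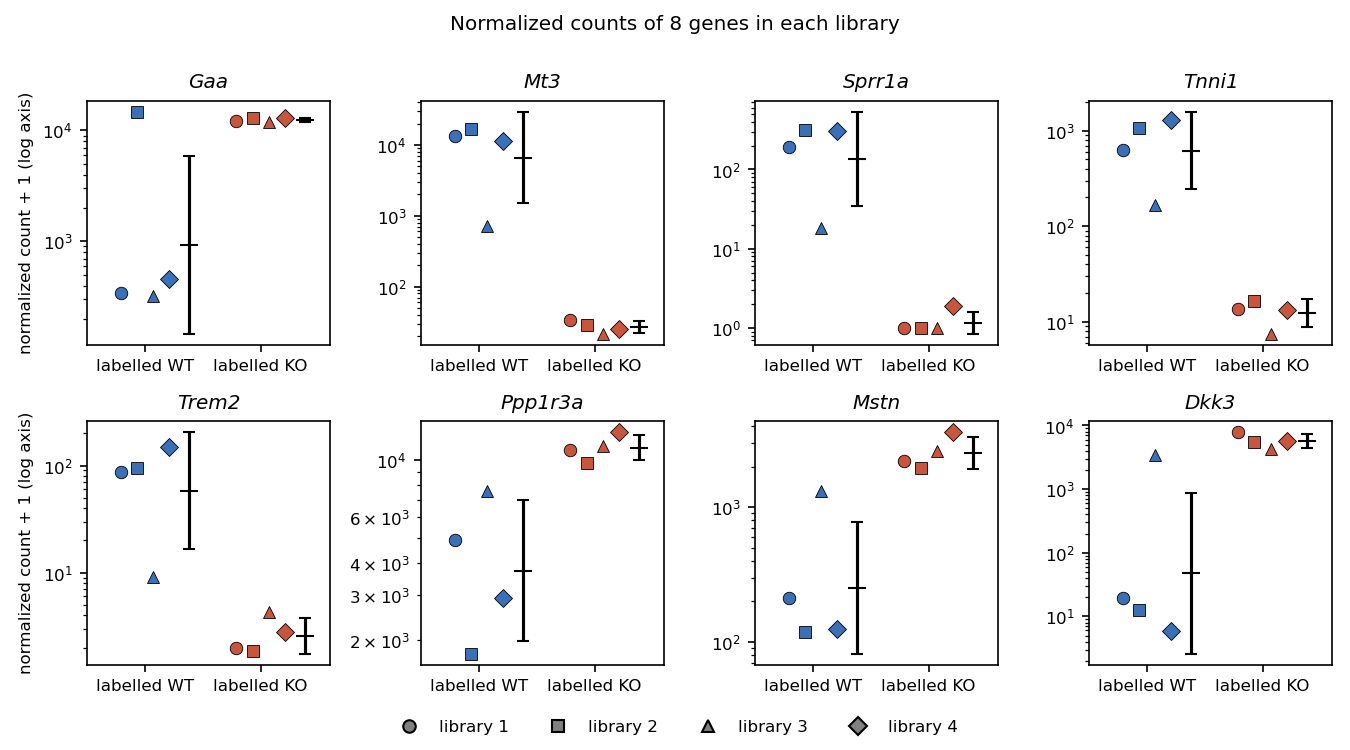
Normalized counts plus 1 (y axes, log scale) of 8 genes in each library; blue, labelled WT; red, labelled KO; marker shapes give libraries 1 to 4, and black bars the mean ± SD on the log scale (n = 4). WT library 2 is high for Gaa, and WT library 3 lies toward the KO-labelled libraries for Mt3, Sprr1a, Trem2, Ppp1r3a, Mstn and Dkk3, and least so for Tnni1.

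Metal response elements, the sites through which Mtf1 acts, were looked up in the RefSeq promoters of the metallothioneins, to show the regulatory sequence of this group (GRCm38.p6). The letters searched were TGCACNC and TGCGCNC on both strands, in windows from 250 bases before to 50 bases after the start of each gene, and overlapping matches were counted separately. Mt1 held 3 matches, Mt2 4, Mt3 1 and Mt4 1. Of 32851 promoters, 25.7% held at least 1 match and 1.97% at least 3. Of 22 genes of the zinc list with a promoter, 13 (59.1%) held at least 1. A match is a description of the sequence and not a measured binding site. Shown 5′ to 3′ are the 250 bases before the start, with matches in capitals, for Mt1 (chr8:94178839-94179088, + strand), Mt2 (chr8:94172368-94172617, + strand) and Mt4 (chr8:94136954-94137203, + strand); 1, 3 and 1 of their matches lie in this stretch, and the match of Mt3 lies after its start.
Mt1: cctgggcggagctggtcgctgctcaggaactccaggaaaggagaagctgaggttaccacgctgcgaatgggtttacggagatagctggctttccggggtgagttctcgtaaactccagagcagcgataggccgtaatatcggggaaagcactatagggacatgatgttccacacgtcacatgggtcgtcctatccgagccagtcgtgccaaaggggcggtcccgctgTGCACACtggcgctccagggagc
Mt2: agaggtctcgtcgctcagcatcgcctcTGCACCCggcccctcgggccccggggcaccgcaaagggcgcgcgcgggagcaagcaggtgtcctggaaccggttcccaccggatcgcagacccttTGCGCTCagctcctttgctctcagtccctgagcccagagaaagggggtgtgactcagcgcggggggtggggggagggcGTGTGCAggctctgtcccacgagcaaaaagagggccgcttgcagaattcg
Mt4: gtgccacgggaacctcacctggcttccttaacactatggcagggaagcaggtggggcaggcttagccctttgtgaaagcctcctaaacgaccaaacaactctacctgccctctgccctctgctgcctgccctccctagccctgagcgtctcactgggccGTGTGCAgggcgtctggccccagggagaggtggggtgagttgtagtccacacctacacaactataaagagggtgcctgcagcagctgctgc

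Genes that muscle fibers induce after denervation or damage were lower in the KO-labelled libraries. Of 19 tested members of this list, 13 passed lower and none higher (10 without WT library 2 and 14 without WT library 3), with a median log2 fold change of -1.98. Sprr1a, a cornified envelope protein induced in injured nerve and stretched or damaged muscle, had normalized counts of 194, 309, 17.0 and 308 in the WT-labelled libraries and 0, 0, 0 and 0.884 in the KO-labelled ones (-6.85 ± 0.82, limma, adjusted p = 0.000943). It was thus detected in all libraries labelled WT, lowest in WT library 3, and by 1 read in a single library labelled KO. Gadd45a, a stress gene that rises in denervated fibers, fell from 2869, 4763, 1104 and 2523 to 301, 334, 387 and 462 (-2.76 ± 0.37), and Runx1, a transcription factor of denervated muscle, from 674, 645, 199.7 and 733 to 85.0, 66.7, 85.9 and 60.1 (-2.76 ± 0.38). The cytoskeletal repair gene Xirp1 fell by 1.70 on the log2 scale, with WT library 3 the highest of all at 20283. Csrp3, a sarcomere stretch sensor, had 1160.1, 2084, 6083 and 2277 and 1013, 1860.0, 319.8 and 289 (-1.89 ± 0.64, limma, adjusted p = 0.0512), again highest in WT library 3.

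The promoter of Sprr1a held 2 matches to an AP-1 site (TGANTCA, both strands, same windows), a number that 0.46% of promoters reached. At least 1 match was present in 7.81% of all promoters and in 0 of 24 promoters of the immediate early list. A match is a description of the sequence and not a measured binding site. Whether AP-1 factors had a part in the values of Sprr1a was not tested. The 250 bases before the start (chr3:92485882-92486131, - strand) read, with matches in capitals:
Sprr1a: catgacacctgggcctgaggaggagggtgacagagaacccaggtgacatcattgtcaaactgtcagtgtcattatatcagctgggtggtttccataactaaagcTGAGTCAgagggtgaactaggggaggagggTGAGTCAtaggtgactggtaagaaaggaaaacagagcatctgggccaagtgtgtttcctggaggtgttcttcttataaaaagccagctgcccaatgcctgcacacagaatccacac

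Developmental and regeneration genes followed the same direction. Of 19 members tested, 12 passed lower and 1 higher (7 without WT library 1, 2 or 4 and 16 without WT library 3 lower; median -1.82). The embryonic myosin heavy chain gene Myh3 fell from 1051, 1039.7, 166 and 1088 to 116, 77.0, 65.3 and 72.5 (-3.03 ± 0.55), the embryonic light chain gene Myl4 from 1174, 1634, 298 and 1744 to 98.6, 109, 75.05 and 153 (-3.23 ± 0.50) and the cardiac and fetal troponin gene Tnnt2 from 1069, 1511, 150.2 and 1634 to 80.2, 46.2, 83.8 and 61.0 (-3.57 ± 0.65). Tmem8c encodes myomaker, the membrane protein that lets myoblasts fuse, and fell from 181, 226, 6.49 and 275 to 4.83, 1.71, 2.17 and 0.884 (-4.95 ± 1.02). In WT library 3 these genes were closer to the KO-labelled libraries than to the other WT-labelled libraries. Myod1, the myogenic determination factor, fell less (-0.58 ± 0.16), and Pax7, the marker of satellite cells, had 67.4 to 168 and 71.0 to 100.1 normalized counts (-0.43 ± 0.27, limma, adjusted p = 0.237). Dlk1, a Notch-like inhibitor of differentiation, was the member that rose, from 11.8, 8.504, 24.3 and 5.85 to 42.5, 32.5, 40.2 and 43.3 (1.75 ± 0.39). At the neuromuscular junction, 6 of 16 genes passed lower and 1 higher (3 without WT library 1, 2 or 4 or KO library 2 and 11 without WT library 3 lower). Several of these junction genes, Chrnd and Chrna1 among them, are also members of the denervation or the developmental list. Acetylcholine receptor subunit genes Chrnd (-3.46 ± 0.67) and Chrna1 (-2.47 ± 0.58) fell, while Agrn, whose product agrin clusters the receptors, rose from 206, 248.8, 192 and 208 to 432, 419.9, 481 and 481 (1.09 ± 0.13) with WT library 3 among the other WT-labelled libraries. An adjusted p under 0.05 (limma, 8 fits with 1 library left out) was kept by Myod1 in 3 (highest 0.0739, without KO library 1).

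Immediate early genes, transcription factors and phosphatases induced within minutes to hours of stress, stretch or tissue handling, had 15 of 30 members lower and 1 higher (12 without WT library 2 and 21 without WT library 3 lower; median -1.07). The AP-1 subunit gene Fosl1 fell from 132, 158, 28.4 and 131 to 1.93, 0.855, 1.09 and 0 (-5.70 ± 0.57, limma, adjusted p = 0.000401). The AP-1 subunit gene Jund fell from 1313, 3966, 1648 and 2483 to 205, 277, 349 and 411 (-2.83 ± 0.33) and Junb from 1514, 2241, 478 and 2251 to 111, 102, 145 and 255 (-3.27 ± 0.48). Socs3, a feedback inhibitor of cytokine signaling, fell from 518, 732, 582 and 833 to 165, 62.4, 119 and 73.4 (-2.74 ± 0.30). For Jund and Socs3 WT library 3 lay within the range of the other WT-labelled libraries. Fos itself varied widely in both groups, with 672, 723, 406 and 2157 and 918, 382, 423 and 96.4 (-1.22 ± 0.66, limma, adjusted p = 0.184). Klf4 was the member that rose (1.02 ± 0.24), with 348 to 682 and 659 to 1056, which overlap. Fosl1 shares 1056 aligned bases at 100% identity with a transcript of the overlapping gene Ccdc85b, and Jund shares 543 with the antisense gene Gm11175. Counting by strand is not stated, so reads of these pairs may not be told apart.

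Slow fiber genes were lower in the KO-labelled libraries, with 13 of 14 members passed and none higher, and a median of -2.36 (6 without WT library 2 or 4, 7 without KO library 1 and 13 without WT library 3). The thin filament genes Tnnc1 (-3.48 ± 0.33) and Tnnt1 (-3.67 ± 0.42), which encode slow troponin C and T, fell along with Tnni1 (-5.66 ± 0.57), and so did Casq2, the slow and cardiac calsequestrin (-2.30 ± 0.34). Tnnc1 had 170.1, 376, 205 and 459 in the WT-labelled libraries and 29.95, 29.9, 18.5 and 20.3 in the KO-labelled ones, so that WT library 3 was not apart here. The slow myosin gene Myh7 had 15.4, 106, 248 and 74.1 and 14.5, 11.1, 13.1 and 14.1 (-2.42 ± 0.67), highest in WT library 3. Mb, which encodes myoglobin, did not pass, at 27792 to 99035 and 16270.0 to 50429 (-0.85 ± 0.42, limma, adjusted p = 0.146). Among 15 fast fiber genes, 3 passed higher and 2 lower, with 12.3% and 15.3% over all genes. The fast fiber counts, higher and lower, were 1 and 0 without WT library 2 or 4, 1 and 1 without KO library 1, 3 or 4, 1 and 2 without WT library 1 or KO library 2, and 4 and 1 without WT library 3. Myh4, the 2B myosin that dominates this muscle, rose from 1248337, 1293965, 1224044 and 914021 to 2213291, 1828687, 1722781 and 1978491 (0.73 ± 0.24) and the fast light chain gene Myl1 from 93717, 103913, 97026 and 72831 to 179846, 205278, 156276 and 261408 (1.11 ± 0.20). Both other fast myosin genes fell, Myh1 (the 2X myosin) from 89364, 212016, 100868 and 166045 to 58194, 66937, 65915 and 28863 (-1.35 ± 0.34) and Myh2 (the 2A myosin) from 7361, 25727, 49032 and 26799.6 to 6101, 11604, 8786 and 2112 (-1.89 ± 0.62), and the values of Myh2 overlapped. Transcripts of Myh1 share at least 90% identity with those of Myh2 and of Myh4, and counted reads were those with a single genomic location. Among 8 limma fits without 1 library each, the adjusted p stayed under 0.05 for Myh7 in 2 (highest 0.0722, without WT library 2), Myh1 in 6 (highest 0.055, without WT library 4), Myh2 in 2 (highest 0.107, without WT library 2) and Myh4 in 1 (highest 0.134, without KO library 1).

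Macrophage genes, whose summed levels are given above, had 16 of 25 members lower and 1 higher in the KO-labelled libraries (8 without WT library 4, 9 without KO library 1 or 4, 10 without WT library 1, 11 without WT library 2 and 22 without WT library 3 lower; median -1.89). Trem2, a receptor of lipid-laden and tissue-remodeling macrophages, fell from 86.9, 93.5, 8.12 and 149 to 0.966, 0.855, 3.26 and 1.77 (-4.50 ± 0.78) and the lysosomal glycoprotein gene Cd68 from 560.1, 590.0, 69.8 and 568 to 36.7, 28.2, 33.7 and 30.9 (-3.35 ± 0.60). The chemokine receptor gene Cx3cr1 fell from 51.6, 36.1, 10.6 and 136 to 0.966, 2.56, 4.35 and 3.54 (-3.54 ± 0.68) and the complement gene C1qc from 453, 528, 184 and 617 to 81.2, 107, 151 and 85.8 (-1.97 ± 0.36). In these 4 genes the groups did not overlap, and WT library 3 was lowest among the WT-labelled libraries. Cd163, a scavenger receptor of resident macrophages, was the member that rose, from 73.3, 68.0, 119 and 93.6 to 192, 152, 159.9 and 109 (0.79 ± 0.24). Of 28 antigen presentation and interferon genes, 6 passed lower and 1 higher (1 without WT library 1, 2 or 4, 2 without KO library 1, 3 without KO library 2 or 4 and 10 without WT library 3 lower), led by the nonclassical class I gene H2-T24 (91.4, 122, 91.7 and 126 against 13.5, 25.7, 18.5 and 22.99). Over all genes, 15.3% passed lower and 12.3% higher, and 10.2% passed lower without WT library 2. In the 8 limma fits with 1 library left out, an adjusted p under 0.05 remained for Cd163 in 2 (highest 0.101, without KO library 1).

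Lysosomal hydrolases were lower more often than higher. Of 48 hydrolases and activators tested, 13 passed lower and 2 higher (11 without WT library 2 and 21 without WT library 3 lower; median -0.23). The protease genes Lgmn, for legumain, fell from 4616, 5085, 1096 and 5069 to 560.4, 616, 593 and 660.5 (-2.48 ± 0.43) and Ctsb, for cathepsin B, from 18468, 19153, 10781 and 17655 to 7738, 7749, 8371 and 7335 (-1.05 ± 0.18). Ppt1, which removes fatty acids from proteins, fell from 891, 866, 521 and 923 to 266, 292, 338 and 299.7 (-1.39 ± 0.19). In all 3 genes the groups did not overlap and WT library 3 was lowest among the WT-labelled libraries. Macrophages as well as fibers express them, and the macrophage sum moved with them; its part in these values was not tested. Hgsnat, the acetyltransferase of heparan sulfate breakdown, rose from 373, 369.9, 329.5 and 404 to 559, 876, 881 and 923 (1.11 ± 0.17). Ctsd, one of the most abundant, had 21409 to 42811 and 24080.0 to 28961 (-0.30 ± 0.20, limma, adjusted p = 0.273). Lamp1, a main membrane protein of lysosomes, fell by 0.53 on the log2 scale, and 4 of 22 membrane genes passed lower against 1 higher. The shares over all genes were 15.3% lower and 12.3% higher. The lysosomal membrane counts, higher and lower, were 0 and 2 without WT library 4, 1 and 4 without WT library 2, and 5 and 6 without WT library 3. Leaving out 1 library at a time, 8 limma fits kept an adjusted p under 0.05 for Lamp1 in 4 (highest 0.0558, without KO library 3).

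The proton pump that acidifies lysosomes had lower subunits and a single higher one, whose value is tied to a copied gene. Of 19 V-ATPase genes, 7 passed lower, among them the accessory subunit gene Atp6ap2 (-0.98 ± 0.22), and Atp6v0c, for the membrane ring subunit, passed higher (3 without WT library 4 or KO library 1, 4 without WT library 1 or 2 or KO library 4 and 11 without WT library 3 lower). Atp6v0c had 28.1, 38.3, 13.0 and 33.2 in the WT-labelled libraries and 345, 425, 393 and 454 in the KO-labelled ones (3.89 ± 0.30, limma, adjusted p = 8.57e-05), and the groups did not overlap. Its processed pseudogene Gm15487 had 375, 584, 369 and 331 and 3.87, 5.13, 1.09 and 2.65. The sum of both was 403, 622, 382 and 364 in the WT-labelled libraries and 349, 430.1, 394 and 457 in the KO-labelled ones, which overlap (log2 difference -0.09, exact two-sided permutation test, p = 0.771). In all 4 libraries labelled WT, WT libraries 2 and 3 included, the reads were assigned mainly to the pseudogene, and in all 4 labelled KO to the parent gene. The value of Atp6v0c alone is therefore uncertain. Over the 465 bases of Gm15487 the GENCODE M21 transcripts differ at 1 base, C111T (the base of Gm15487, its position from 1 at the 5′ end of Gm15487, then the base of Atp6v0c). The 61 bases around it, which lie in the coding part, are shown to make this visible, with the differing base in capitals:
Gm15487: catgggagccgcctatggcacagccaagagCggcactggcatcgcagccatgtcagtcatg
Atp6v0c: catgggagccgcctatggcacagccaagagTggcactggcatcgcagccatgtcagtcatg

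Autophagy genes had 6 of 46 members higher and 4 lower, with 12.3% and 15.3% over all genes. The list median was 0.14, and the sign was higher in 29 members and lower in 17. Of the 6 that rose, Mitf is given below and Bnip3 with the growth control genes, and the rest are not reported here. The autophagy counts, higher and lower, were 2 and 3 without WT library 4, 2 and 4 without WT library 1 or KO library 1, 2 or 4, 3 and 4 without KO library 3, 4 and 4 without WT library 2, and 13 and 8 without WT library 3. The 4 that fell were Vamp8, a fusion protein of autophagosomes and lysosomes (-0.75 ± 0.17), and the autophagosome coat protein genes Gabarap (-0.67 ± 0.14), Gabarapl1 (-0.64 ± 0.13) and Map1lc3a (-1.27 ± 0.32). Their relatives Gabarapl2 (-0.19 ± 0.13) and Map1lc3b (0.04 ± 0.11) did not pass (limma, adjusted p = 0.292 and 0.785). Gabarapl2 passed after a correction for GC content (limma, adjusted p = 0.0492), and the sign of Map1lc3b reversed without WT library 1 and after a correction for gene length. Gabarap had 6458, 7449.8, 5065 and 7644 and 3813, 4295, 4026 and 4366, without overlap and with WT library 3 lowest among the WT-labelled libraries. Sqstm1, the cargo receptor p62 that builds up when autophagy is blocked, had 39681, 39824, 19038 and 31163 and 21208, 22719, 20355 and 21694 (-0.53 ± 0.22, limma, adjusted p = 0.0955). The lysosome regulator gene Mitf rose from 327, 259, 463 and 283 to 575, 616, 509 and 524 (0.77 ± 0.18), and its relative Tfeb had 3093 to 4269 and 2295 to 3658 (-0.28 ± 0.16, adjusted p = 0.221 by limma), a sign that reversed after a correction for GC content. An adjusted p under 0.05 (limma, 8 fits with 1 library left out) was kept by Map1lc3a in 7 (highest 0.0569, without WT library 4).

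Glycogen metabolism was one of the lists with more members higher than lower, 9 of 29 against 2 (5 without KO library 1, 7 without WT library 2 and 16 without WT library 3 higher; median 0.48). The muscle phosphorylase gene Pygm rose (0.77 ± 0.20). Phka1, a regulatory subunit of the kinase that activates phosphorylase, rose from 20577, 15348, 20393 and 11914 to 37734, 36084, 27872 and 38807 (1.07 ± 0.20) and Phkg1, its catalytic subunit, from 9253, 10599, 12953 and 8408 to 17932, 17103, 15826 and 19182 (0.78 ± 0.15). Ppp1r3a, which tethers a phosphatase to glycogen in muscle and favors synthesis, rose from 4907, 1765, 7620.4 and 2910.2 to 10967, 9747, 11385 and 12841 (1.59 ± 0.37), and the related Ppp1r3e from 8.14, 21.3, 4.87 and 23.4 to 63.8, 44.5, 64.2 and 84.0 (2.28 ± 0.46). In these 4 genes the groups did not overlap. The catalytic subunit gene Ppp1ca fell (-0.63 ± 0.16), as did Stbd1, a starch-binding protein that has been linked to the delivery of glycogen to lysosomes, with 5075, 4163, 1900.0 and 3793 and 2247, 2316, 1725 and 1799 (-0.81 ± 0.27). Gys1, the muscle glycogen synthase, had 12401 to 15676 and 13123 to 15236 (0.07 ± 0.12, limma, adjusted p = 0.669), and the branching enzyme gene Gbe1 1448 to 2591 and 1103 to 1598 (-0.43 ± 0.19, adjusted p = 0.118). Among 8 limma fits without 1 library each, the adjusted p stayed under 0.05 for Pygm in 5 (highest 0.0669, without KO library 1), Ppp1ca in 4 (highest 0.0587, without KO library 1) and Stbd1 in 1 (highest 0.121, without WT library 2).

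In glycolysis, 5 of 25 genes passed higher and 4 lower, with 12.3% and 15.3% over all genes. The glycolysis counts, higher and lower, were 2 and 3 without KO library 4, 2 and 4 without WT library 1 or KO library 3, 3 and 2 without WT library 4, 3 and 3 without KO library 1, 3 and 4 without KO library 2, 4 and 2 without WT library 2, and 5 and 4 without WT library 3. Pfkfb3, which makes the activator of phosphofructokinase, rose from 4901, 4710.3, 4196 and 5336 to 19652, 12297, 12551 and 13758 (1.58 ± 0.16, limma, adjusted p = 0.000478), with WT library 3 lowest of all. The pairs of transporter and hexokinase isoforms moved apart. Slc2a1, the ubiquitous glucose transporter GLUT-1, fell from 1093, 1249, 289 and 1171 to 166, 168, 186 and 223 (-2.15 ± 0.41), while Slc2a4, the insulin-regulated transporter of muscle, rose from 12092, 13628, 17167 and 10387 to 20314, 20199.7, 20422 and 21797 (0.66 ± 0.16). Hk1 fell from 1643, 1770.0, 243 and 1457 to 197, 240.3, 263 and 179 (-2.21 ± 0.55) and Hk2, the main muscle hexokinase, rose from 9809, 10587, 13921 and 12378 to 15082, 16652, 20273 and 17859 (0.59 ± 0.15). The groups overlapped for Hk1, through WT library 3, and not for the other 3 genes. Of 35 fatty acid genes, 5 passed lower and 1 higher, with Ucp2, a mitochondrial carrier that is high in macrophages, the lowest (-1.90 ± 0.37). Over all genes, 15.3% passed lower and 12.3% higher. The fatty acid counts, higher and lower, were 0 and 4 without WT library 2, and 4 and 7 without WT library 3. In the 8 limma fits with 1 library left out, an adjusted p under 0.05 remained for Hk1 in 6 (highest 0.054, without WT library 4) and Hk2 in 5 (highest 0.0562, without KO library 3).

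Growth control genes included the largest rise of the atrophy list. Mstn, which encodes myostatin, the secreted brake on muscle growth, had 209.9, 117, 1316 and 123 in the WT-labelled libraries and 2191, 1945, 2639.8 and 3610.1 in the KO-labelled ones (3.32 ± 0.66, limma, adjusted p = 0.00731), with WT library 3 nearest to the latter. Igf1, a muscle growth factor, rose from 208, 79.7, 352 and 303 to 522, 617, 653 and 431 (1.41 ± 0.40), and Bnip3, a mitophagy receptor, from 1162, 783, 1791 and 1007 to 1956, 1942, 2368 and 2378 (0.92 ± 0.22). Eda2r, a receptor of the TNF family, fell from 2113, 1130.0, 695 and 1631 to 583, 496, 479 and 581 (-1.27 ± 0.29). The muscle ubiquitin ligase genes Fbxo32 and Trim63 did not pass, with 9879 to 25056 and 23376 to 33178 for the first (0.56 ± 0.27) and 8795 to 20936 and 9653 to 13566 for the second (-0.53 ± 0.26; limma, adjusted p = 0.143 and 0.152). In all, 4 of 20 members passed higher and 3 lower, with 12.3% and 15.3% over all genes. The atrophy counts, higher and lower, were 2 and 2 without KO library 1, 2 and 3 without WT library 1 or KO library 2, 3 and 1 without WT library 4, 4 and 2 without WT library 2, and 7 and 4 without WT library 3. Leaving out 1 library at a time, 8 limma fits kept an adjusted p under 0.05 for Igf1 in 4 (highest 0.0708, without KO library 3).

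Calcium channel and release genes had 9 of 34 members higher and 5 lower, with 12.3% and 15.3% over all genes. The calcium counts, higher and lower, were 8 and 4 without WT library 2, and 11 and 9 without WT library 3. The accessory subunit gene Cacng7 rose from 80.5, 37.2, 150.2 and 36.1 to 745, 929.6, 1077 and 1017 (3.85 ± 0.40), and the subunit genes Cacna2d4 (1.57 ± 0.29) and Cacna1c (1.34 ± 0.25) rose from means of 63.9 to 181 and of 29.8 to 75.6 normalized counts. Cacnb1, the beta subunit of the muscle channel, fell (-1.40 ± 0.22), and so did Cacng4, from 18.1, 19.1, 7.30 and 11.7 to 0, 1.71, 1.09 and 0 (-3.20 ± 0.53). Sln, for sarcolipin, a small inhibitor of the sarcoplasmic reticulum calcium pump, fell from 1034, 1455, 48.7 and 1264 to 34.8, 6.84, 15.2 and 6.19 (-5.37 ± 1.004), and WT library 3 again lay with the KO-labelled libraries. Sln is also a member of the denervation list.

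Endothelial and mural markers had 10 of 16 members higher and none lower (4 without WT library 4 or KO library 1 or 3, 5 without WT library 2 or KO library 2 and 15 without WT library 3; median 0.96), and the sign was higher for all 16. Vwf, the clotting factor of endothelial cells, rose from 197, 157, 226 and 98.5 to 516, 582, 797 and 703 (1.98 ± 0.25), the receptor gene Tie1 from 363, 303, 567 and 279 to 844, 909, 782 and 735 (1.164 ± 0.21) and the secreted vessel factor gene Egfl7 from 381, 518, 581 and 677 to 1101, 1409, 1030.0 and 906 (1.05 ± 0.20). Pecam1, the pan-endothelial adhesion molecule, overlapped between the groups at 782, 508, 1337 and 515 and 1538, 1478, 1268 and 1180.4 (0.91 ± 0.28). An adjusted p under 0.05 (limma, 8 fits with 1 library left out) was kept by Pecam1 in 1 (highest 0.102, without WT library 4).

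Clock genes had 8 of 20 members higher and 1 lower (4 without KO library 4, 5 without WT library 1 or KO library 3, 7 without WT library 2 and 10 without WT library 3 higher). The clock output factor gene Hlf rose from 59.7, 52.1, 538 and 56.6 to 658, 563, 845 and 935 (2.88 ± 0.65), and the repressor gene Per2 from 107, 267, 304 and 212 to 556, 688, 1127 and 1032 (1.97 ± 0.34). Rora (0.85 ± 0.19) and Per3 (0.98 ± 0.26) rose as well, and Npas2, a partner of the clock activator, fell (-1.73 ± 0.52). Arntl, the core activator, had 323, 184, 514 and 169 and 567, 414, 152 and 274 (0.23 ± 0.44, limma, adjusted p = 0.715). Among 8 limma fits without 1 library each, the adjusted p stayed under 0.05 for Per3 in 5 (highest 0.0647, without KO library 3) and Npas2 in 4 (highest 0.0894, without WT library 1).

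Imprinted growth genes moved in both directions, with 5 of 20 higher and 4 lower, against 12.3% and 15.3% of all genes. The imprinted counts, higher and lower, were 5 and 2 without WT library 4 or KO library 1 or 3, 5 and 3 without WT library 2, and 5 and 6 without WT library 3. H19, a long noncoding RNA of embryonic and regenerating muscle, fell from 73199.9, 83378, 28387 and 104553 to 6573, 8341, 8931 and 5902 (-3.15 ± 0.35, limma, adjusted p = 0.000669). Its neighbor Igf2 fell from 1977, 2459.9, 757 and 3656 to 582, 778, 623 and 729 (-1.51 ± 0.39). The maternally expressed noncoding RNAs of the Dlk1 locus rose, Meg3 from 333, 299.8, 339 and 566 to 1254, 1237, 1651 and 1156 (1.82 ± 0.21) and Rian from 69.7, 47.8, 111 and 80.9 to 268, 236, 237 and 175 (1.599 ± 0.26), along with Dlk1 itself. For Meg3 and Rian, WT library 3 was not set apart from the other WT-labelled libraries. Genes of limb position had 3 of 24 higher and 4 lower, near the 12.3% and 15.3% of all genes. The limb position counts, higher and lower, were 2 and 2 without WT library 2 or 4 or KO library 1 or 4, 3 and 2 without KO library 3, and 6 and 4 without WT library 3. En1, a homeobox gene of limb patterning, fell from 224, 344, 218 and 313 to 51.2, 42.8, 69.6 and 57.5 (-2.29 ± 0.22), with WT library 3 near the other WT-labelled libraries. In the 8 limma fits with 1 library left out, an adjusted p under 0.05 remained for Igf2 in 4 (highest 0.0608, without WT library 2).

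Stress protein genes were lower more often than higher. Of 30 heat shock and chaperone genes, 11 passed lower and 1 higher (5 without WT library 1 or KO library 1, 6 without WT library 2 or 4 or KO library 4, 7 without KO library 3 and 15 without WT library 3 lower). The muscle small heat shock protein gene Hspb7 fell from 57016, 55524, 22874 and 44397 to 12671, 14937, 7413 and 4816 (-2.22 ± 0.39), and Hspb1, which has a pseudogene of 99.8% identity (-1.09 ± 0.26), and the endoplasmic reticulum chaperone gene Hsp90b1 (-0.70 ± 0.12) fell too. Among 28 antioxidant genes, 6 passed lower and 3 higher, with 15.3% and 12.3% over all genes. The antioxidant counts, higher and lower, were 0 and 6 without KO library 2, 1 and 6 without WT library 4 or KO library 1 or 4, 1 and 7 without WT library 1, 2 and 6 without WT library 2, and 5 and 9 without WT library 3. Srxn1, which repairs oxidized peroxiredoxins, fell from 4542, 5178, 2989 and 3882 to 1135, 1548, 949.5 and 863 (-1.89 ± 0.22), Gpx1, the main glutathione peroxidase, from 5941, 6558, 3007 and 5695 to 1140.1, 1240.0, 1829 and 2121 (-1.73 ± 0.27) and Txn1, for thioredoxin, from 4143, 5251, 1713 and 4950.5 to 1259, 1095, 1156 and 1169 (-1.66 ± 0.31). For these genes and Hspb7 the groups did not overlap, with WT library 3 lowest among the WT-labelled libraries. Gclm, of glutathione synthesis, rose (0.52 ± 0.13). The integrated stress response, by which cells pause translation, had 5 of 27 members higher and 4 lower, with 12.3% and 15.3% over all genes. The integrated stress counts, higher and lower, were 5 and 1 without WT library 4 or KO library 1, 2 or 4, 5 and 2 without WT library 2 or KO library 3, and 6 and 6 without WT library 3. Its members that rose included the amino acid transporter gene Slc1a5, from 248, 128, 223 and 150.2 to 482, 609.7, 1751 and 462 (1.95 ± 0.41), and Vldlr (0.97 ± 0.18), and Eif4ebp1, a translation repressor, fell from 2438, 3645, 1095 and 2166 to 699, 595, 879.9 and 917 (-1.49 ± 0.32). Leaving out 1 library at a time, 8 limma fits kept an adjusted p under 0.05 for Gclm in 7 (highest 0.0643, without KO library 2).

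Matrix genes had 8 of 34 members lower and none higher (3 without WT library 1 or 4 or KO library 2 or 4, 4 without WT library 2 or KO library 3 and 15 without WT library 3; median -0.39). Timp1, an inhibitor of matrix proteases induced by injury, fell from 752, 1151, 67.4 and 1349 to 12.6, 7.70, 3.26 and 2.65 (-6.34 ± 0.86, limma, adjusted p = 0.00161) and the fibrogenic cytokine gene Tgfb1 from 737, 1396, 206 and 1061 to 66.7, 97.5, 119 and 89.3 (-2.91 ± 0.50). The crosslinking enzyme gene Loxl1 fell less (-0.92 ± 0.15). Col1a1, the main fibrillar collagen gene, had 3956, 3776, 1679 and 4972 and 2457, 1733, 1898 and 1249 (-0.91 ± 0.32, adjusted p = 0.0596 by limma).

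Outside the published signature, the 12 largest rises and 12 largest falls were taken from 874 called protein-coding genes with a mean of at least 50 in the higher group and no overlap between the groups. Dkk3, a secreted protein of the dickkopf family, had 18.1, 11.7, 3474 and 4.88 in the WT-labelled libraries and 7805, 5594, 4285 and 5759 in the KO-labelled ones (6.92 ± 1.63), so that WT library 3 was near the KO-labelled libraries and the other WT-labelled libraries were nearly without it. The next rises shared this layout. Odf3l2 had 77.8, 33.0, 632 and 2.93 and 1015, 1496, 1969.8 and 1333 (4.80 ± 1.19), Tiam1, an activator of the small GTPase Rac, 20.8, 12.8, 206 and 29.3 and 379, 866, 844 and 1020.4 (4.30 ± 0.72), and Gdap1, a mitochondrial outer membrane protein mutated in a hereditary neuropathy, 48.9, 44.6, 713 and 96.6 and 1303, 1291, 1772 and 2009.8 (3.80 ± 0.73). BC048679 (4.61 ± 0.78), the FGF-binding protein gene Fgfbp1 (4.40 ± 0.71), 1700001O22Rik (4.35 ± 0.90), the endothelial gene Tmem100 (4.14 ± 0.62), the integrin gene Itga4 (3.36 ± 0.54) and the glutamate transporter gene Slc1a3 (3.27 ± 0.83) followed, and the set also holds Mstn and Trim12a. In all 10 of the rises named in this paragraph with values, WT library 3 was the highest of the WT-labelled libraries. An adjusted p under 0.05 (limma, 8 fits with 1 library left out) was kept by Odf3l2 in 7 (highest 0.0511, without WT library 2) and Slc1a3 in 6 (highest 0.0521, without KO library 3).

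Sprr1a and Sln led the falls. Mdfi, an inhibitor of MyoD, fell from 787, 1052, 32.5 and 794 to 4.83, 27.4, 23.9 and 29.2 (-4.36 ± 1.02), and Mustn1, a nuclear protein of regenerating muscle and bone, from 24665, 30285, 5356 and 27168 to 2179, 1900.2, 1638 and 1224 (-3.42 ± 0.49). Ccdc85b, which overlaps Fosl1, fell from 1105, 2404, 1283 and 1853 to 15.5, 73.5, 76.1 and 377 (-4.36 ± 0.75) and Tpt1, the translationally controlled tumor protein gene, from 753, 1556, 952 and 548 to 50.2, 53.0, 72.9 and 318 (-3.30 ± 0.55), and in both WT library 3 lay among the other WT-labelled libraries. With its 3 pseudogenes, Tpt1 summed to a mean of 1306 ± 507 and 407 ± 149 (SD, n = 4 in each). Further falls were Tmem202 (-3.47 ± 0.57), Cd68, G430095P16Rik (-3.14 ± 0.65), BC067074 (-3.002 ± 0.33) and Mtus2, a microtubule-associated protein gene (-2.87 ± 0.69).

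Genes present in one group alone formed a further class. With all 4 values under 10 in one group and all 4 at 50 or more in the other, 17 genes were found, 7 higher and 10 lower in the KO-labelled libraries. Of these, 9 were processed pseudogenes, 5 protein coding, and 3 belonged to the signature. WT libraries 2 and 3 sat with the other WT-labelled libraries in every one of them by this definition. Hal, which encodes the first enzyme of histidine breakdown, had 78.7, 72.3, 74.7 and 114 and 1.93, 2.56, 0 and 0 (-5.55 ± 0.48). Trim12a, of the antiviral TRIM5 family, had 0 in each library labelled WT and 58.9, 53.9, 139 and 103 in the KO-labelled ones, at least 31.5-fold higher against a floor of 3 reads a library. Slc17a7, a vesicular glutamate transporter gene, had 72.4, 92.5, 51.9 and 74.1 and 8.70, 9.41, 8.70 and 7.07 (-2.94 ± 0.26). The ribosomal protein gene Rpl29 had 1.81, 4.25, 0.812 and 0.975 and 218, 252, 279.5 and 279, and 424 of its bases match a transcript of Uimc1 at 99.8%. The remaining genes higher in the KO-labelled libraries were Gm8730, Gm8199, RP24-547D11.4, 2610507I01Rik and Gm10032, and the remaining lower genes included Gm15487, Gm9825, Gm830, Gm8420, Gm14094, Gm14121 and Eif5al3-ps.

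For 11 of the 17 genes another gene of the table had a transcript at least 90% identical over at least 50% of the shorter one, so their counts can be split between copies. Gm9825 had 218, 329.5, 262 and 217 and 0.966, 3.42, 2.17 and 0.884, its parent Rnps1, a splicing factor, 224, 305, 323 and 215 and 469, 527, 382 and 523, and their sum 442, 635, 585 and 432 and 469.6, 530.2, 384 and 523. The sum overlapped between the groups (exact two-sided permutation test, p = 0.486).

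**Figure D5:**
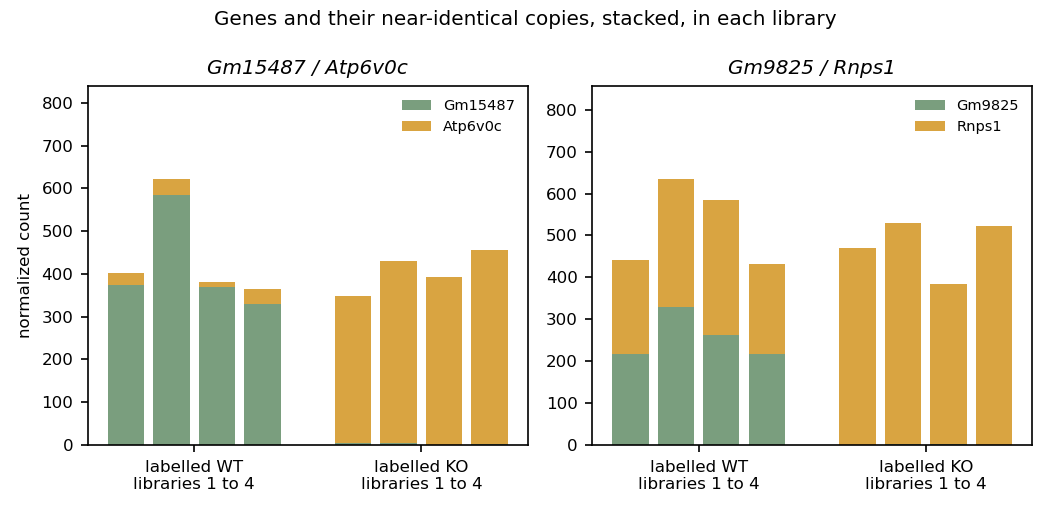
Normalized counts (y axes) of a gene (green) with its near-identical parent or copy (yellow) stacked on top, in libraries 1 to 4 of each group (x axis; bars are single libraries). For Gm15487 with Atp6v0c and for Gm9825 with Rnps1, the totals of the groups overlap while the split between the copies differs.

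Since Gaa went against the labels, the genes around it were read in the same way. Of 29 tested genes within 1 Mb of Gaa, 4 passed higher and 4 lower, against 12.3% and 15.3% of all genes. The neighbor counts, higher and lower, were 2 and 3 without WT library 4 or KO library 4, 2 and 4 without KO library 3, 3 and 3 without WT library 2, and 7 and 6 without WT library 3. Card14, a scaffold of NF-kB signaling, had 593, 727, 31.7 and 613 in the WT-labelled libraries and 30.9, 27.4, 38.1 and 23.9 in the KO-labelled ones (-3.32 ± 0.85). For Card14, WT library 2 lay with WT libraries 1 and 4, and WT library 3 with the KO-labelled libraries, a layout unlike that of Gaa. Rnf213, a large ubiquitin ligase of vessels, rose from 346, 279.6, 337 and 228 to 609, 531, 572 and 557 (0.95 ± 0.16), and the lysosomal sulfatase gene Sgsh had 169.6 to 214 and 214 to 248 (0.20 ± 0.14, limma, adjusted p = 0.3). By chromosome, the share of tested genes that passed lay between 24.1% on chromosome 12 and 33.1% on chromosome 17 for the autosomes, was 24.5% on X, and was 0 of 19 genes of the mitochondrial genome. For the autosomes it was 14.5% to 22.2% without WT library 2 and 45.3% to 54.4% without WT library 3, and for the mitochondrial genome 5.26% and 26.3%. Among 8 limma fits without 1 library each, the adjusted p stayed under 0.05 for Card14 in 4 (highest 0.0605, without WT library 4).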

How the data were processed

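Quadriceps mRNA was compared between 8 libraries, 4 labelled KO and 4 labelled WT, grouped by GEO's labels. The labels do not state that the libraries of a group came from separate animals, so p-values measure only the spread between these samples, which may be technical. The authors trimmed reads with Trim Galore 0.4.1 (quality control with FastQC 0.11.2), aligned them with STAR to GRCm38, kept reads with a single location, counted genes with HTSeq 0.6.1 and divided counts by a DESeq2 1.16.1 size factor; the deposited values are these normalized counts, here treated as a signal. Reads shared by near-identical genes are lost or split by this counting. Whether counting used strand is not given in the sources used here. All deposited values were whole reads once divided by the value of 1 read (100% within 0.02), and this gave the depth. The deposited table also holds the authors' own comparison, as log2 fold changes with their errors, a test score, and p-values; these columns were not used.

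Values were analysed as log2(normalized count + 1) in limma 3.58.1 (R 4.3.3; empirical Bayes with trend), for genes with at least 10 in any library, with Benjamini-Hochberg adjustment at 0.05. Fold changes are on that scale and understate low genes. On simulated data limma recovered 196 of 200 genes (98%) changed by 2 on the log2 scale among 14859. Same-numbered libraries of the groups did not deviate together. Alternatives were edgeR 4.0.16 and DESeq2 1.42.0 on recovered reads, other scalings, pseudocounts, filters, corrections and left-out libraries. The members and gene lists were chosen with earlier results of these data known. Some genes are members of several lists, so list counts are not independent of one another. Named genes are Gaa; the 12 largest rises and 12 largest falls of protein-coding called genes outside the published signature, with no overlap and a mean of 50 or more; genes under 10 in one group and at least 50 in the other; up to 4 list members with the lowest adjusted p in each direction; and list members that did not pass. Genes named beside these as copies, overlapping neighbours, Eif2s3y, or list members beyond those 4 were chosen after their values were seen. Some genes are counted in totals and lists but not reported here. Copies were found among GENCODE M21 transcripts with BLAST 2.17.0. The libraries with vector, and the second table, were used only in the fit of all 12 libraries.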

Additional observations from a re-analysis of the deposited data

Results flagged for a closer look

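Among the 4 libraries of each group, a single library far from the others was looked for in 157 named genes by the gap to its neighbor relative to the range. It was found in 32 of 314 groups (10.2%). A rate of about 1 in 20 would hold for independent, normally distributed values. These genes were named from the same libraries and many share the same distant library, so that rate is no measure of chance here. WT library 3 was the distant library in 22 of the 32. It was the lowest of the libraries labelled WT, in normalized counts, for Card14 (31.7), Cd68 (69.8), Chrna1 (435), Chrnd (137), Ctsb (10781), Dusp4 (100.6), Fosl1 (28.4), Gm830 (76.3), Hk1 (243), Lgmn (1096), Mdfi (32.5), Mt3 (723), Mustn1 (5356), Myh3 (166), Ppt1 (521), Runx1 (199.7), Slc2a1 (289), Sln (48.7), Sprr1a (17.0), Tmem202 (21.1) and Tmem8c (6.49), which include metallothionein, acetylcholine receptor, embryonic myosin, macrophage and lysosomal genes and the phosphatase gene Dusp4. It was the highest for Hlf (538). WT library 3 was also the deepest, at 47379737 counted reads, and its macrophage and endothelial marker sums lay toward those of the libraries labelled KO; the part of depth and of these cell types was not tested.

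The remaining flags were single. Gaa stood out in WT library 2 (14640.2). In WT library 4, Gclm (394) and Myh4 (914021) were low. In KO library 1, Hgsnat (559) and Mdfi (4.83) were low, and in KO library 2 RP24-547D11.4 (295). In KO library 3, Gabarapl2 (446) was high. KO library 4 was low for Myh1 (28863) and high for Slc2a4 (21797) and for Sprr1a, where its 0.884 is 1 read.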

How the results depend on the processing

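With 1 library left out, 1349 to 3244 genes were called, 514 to 1433 higher and 821 to 1811 lower. The log2 fold change of Gaa was then 3.24 to 5.07, and edgeR gave it 1.66 (adjusted p = 0.29). Passed list members ranged, for lower genes, from 6 to 13 for slow fibre contractile, 7 to 16 for developmental and regenerating fibre, 10 to 21 for lysosomal hydrolase and activator, 2 to 6 for lysosomal membrane, 3 to 11 for V-ATPase, 5 to 15 for heat shock and chaperone, 1 to 10 for antigen presentation and interferon, 3 to 15 for matrix, 3 to 11 for neuromuscular junction, 2 to 4 for limb position and 8 to 22 for macrophage. For higher genes they ranged from 1 to 4 for fast fibre contractile, 2 to 7 for atrophy ligase, FoxO and myostatin, 5 to 16 for glycogen metabolism, 2 to 13 for autophagy, 2 to 5 for glycolysis, 4 to 10 for circadian clock, 0 to 5 for fibroblast and tenocyte and 4 to 15 for endothelial and mural. A mean of at least 50 left 1314 called genes, 531 higher and 783 lower, with 3 imprinted genes higher and 9 macrophage genes lower, among fewer genes tested. Without WT libraries 2 and 3 together, an alternative chosen after seeing the data, 7 slow fiber, 20 hydrolase, 18 matrix and 11 neuromuscular genes were lower and 7 atrophy, 14 glycogen and 12 autophagy genes higher. Fast fiber genes were higher 6 times by DESeq2 and once (1) with no filter, with the replicate block, with all 12 libraries, or with GC correction and block. Autophagy had 3 higher under length correction and glycolysis 3 by edgeR. Matrix genes were lower 4 times when scaled by total reads, 4 with the replicate block, 4 with GC correction and block, and 5 with all 12 libraries. The cause of these shifts was not tested.

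The replicate block, fitted although correlations of same-numbered libraries (-0.12 to 0.02) did not pair them, gave 1830 calls. Tfeb reversed under GC correction (0.18, also with the block) and Arntl without KO library 1 (-0.051, against 0.58 without KO library 3). Map1lc3b reversed under length correction (-0.15) and without WT library 1 (-0.0094, against 0.11 without WT library 2). The remaining alternatives, which were edgeR (2033 calls), DESeq2 (2212), total reads (2027), TMM (2066), a pseudocount of 0.1 (2017), no filter (2111), all 12 libraries (2043), and length (1883) or GC (1999) correction, stayed within 1.5 times the 2070 calls. For named genes other than Gaa, these reversals included, all but 51 of 2013 values under the other settings, and all but 96 of 1248 with 1 library left out, kept direction and side of the threshold.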
